A study of Mus musculus with 12 samples.

Results

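The H3K27ac peaks described here were found in mouse embryonic stem (ES) cells after 24 h with retinoic acid (RA) and in no other H3K27ac list of the series. Acetylation of histone H3 at lysine 27 (H3K27ac) had been mapped by chromatin immunoprecipitation and sequencing (ChIP-seq), with 1 library per treatment. The peaks were chosen by 3 deposited values: a distance of more than 1000 bp from the nearest transcription start site (TSS), a location class other than LTR repeat, and no overlap, even by 1 bp, with a peak of the LG268, GW3965 or control list. The rule kept 754 of the 3662 distal RA peaks outside LTR repeats, which is 20.6% (exact 95% interval 19.3 to 21.9%), of 14958 RA peaks and 66607 H3K27ac peaks in the 4 lists. The other 2908 distal RA peaks, called in at least 1 further list, serve as the comparison and are named shared distal peaks. Since the H3K27ac calls selected the 754 peaks, their absence from the other lists is their definition and not a result.

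The cells were wild-type E14 ES cells, grown without feeders with serum and leukemia inhibitory factor. They had received a ligand at 1 µM for 24 h or the vehicle dimethylsulfoxide, which is the control. The ligands were RA (all-trans retinoic acid, which activates the retinoic acid receptor RAR), LG268 (an agonist of the retinoid X receptor RXR) and GW3965 (an agonist of the liver X receptor LXR). RXR was mapped with the same 4 treatments, 1 library each. Further RXR libraries came from day 8 and day 16 of neural differentiation through embryoid bodies, where RA was given at 5 µM, with 2 replicates per day. Whether these replicates are separate cultures is not stated in the labels, and the spread between them may be technical.

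H3K27ac marks active promoters and enhancers, and away from promoters it is widely used to find enhancers in use. RAR binds DNA as a dimer with RXR at paired copies of a short half-site, and RA bound to RAR exchanges repressing cofactors for activating ones such as histone acetyltransferases. In the embryo RA patterns the hindbrain and spinal cord through Hox genes, and in culture it drives ES cells towards neural fates. RXR also pairs with LXR and with other receptors, so an RXR peak alone does not name the partner.

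The lists hold called peaks without read totals, which leaves sequencing depth unknown. Peak number ran from 12472 with LG268 to 21418 in the control, with 14958 for RA and 17759 for GW3965. The control list was the longest of the 4. The authors gave every peak a score. How scores compare across libraries is not stated, so scores and ranks are read within a list. Where scores of several lists are given for a site, they show where a peak was called and not a difference in signal. Of 6 ES cell markers, Sox2, Nanog and Klf4 had H3K27ac peaks assigned in all 4 lists, with 4, 3, 4 and 4 peaks at Sox2 for RA, LG268, GW3965 and the control. Pou5f1 had 0, 0, 1 and 2 peaks in the same order and Esrrb 0, 0, 1 and 2, so these genes had no RA or LG268 peak. Zfp42 had 1 GW3965 peak and no other. No test between treatments was possible, since each had 1 library. Shares are given with exact (Clopper-Pearson) 95% intervals, which cover counting error only and treat neighbouring peaks as independent.

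Sequence could be read for the members that reach into a RefSeq promoter window, 250 bases before to 50 bases after a gene's start (GRCm38.p6, the same assembly as mm10). These were 13 of the 754 peaks, in 14 windows, all at starts of genes other than the nearest gene named in the deposited annotation. Shown are the stretches inside the peaks at Hoxc4, Hoxa2, Jund and Sgk1, the first pair because they lie in Hox clusters, the Jund one because it has an RXR peak nearby and holds the single half-site found, and the Sgk1 one because it covers part of the start of Platr6, a non-coding transcript. Capitals mark a receptor half-site, AGGTCA or AGTTCA, searched on both strands.
Gm30528 promoter, nearest gene Hoxc4, chr15:103060741-103060805, minus strand: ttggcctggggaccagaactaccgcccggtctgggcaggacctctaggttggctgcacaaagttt
5730596B20Rik promoter, nearest gene Hoxa2, chr6:52177170-52177204, plus strand: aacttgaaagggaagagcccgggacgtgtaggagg
Gm39191 promoter, nearest gene Jund, chr8:70692306-70692544, minus strand: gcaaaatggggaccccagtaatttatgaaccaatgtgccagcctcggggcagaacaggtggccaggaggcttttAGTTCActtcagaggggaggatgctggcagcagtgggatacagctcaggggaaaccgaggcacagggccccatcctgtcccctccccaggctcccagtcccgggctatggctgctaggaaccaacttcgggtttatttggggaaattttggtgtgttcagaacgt
Platr6 promoter, nearest gene Sgk1, chr10:21847563-21847706, minus strand: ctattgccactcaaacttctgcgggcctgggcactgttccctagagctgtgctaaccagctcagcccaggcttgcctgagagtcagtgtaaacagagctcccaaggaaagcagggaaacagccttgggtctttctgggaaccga

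In the Jund stretch of 239 bases the half-site AGTTCA occurs 1 time. Of all 32851 RefSeq promoter windows, 22.5% hold a half-site in the same part of the window. Over whole windows, 2 of the 14 windows at members (14.3%) and 9104 of all 32851 (27.7%) hold one. The Jund member itself, 5328 bp upstream of the Jund TSS (score 3.82), lay 142 bp from an RXR peak with RA (14.5) and overlapped one with LG268 (18.0). RXR was also called 149 bp away in the control (8.32) and near it at day 8 (32.9 and 43.8). A match describes the letters only, and the members outside promoter windows could not be searched.

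Peaks called with RA alone were weak peaks of their list. Their median score was 4.38 (quartiles 3.51 and 5.21, range 1.76 to 14.6), against 5.75 for shared distal peaks (quartiles 4.35 and 8.41, range 1.39 to 92.3). The best of them held rank 2859 of the 14958 RA peaks, and their median rank was 12571, against 10130 for shared distal peaks. Above the list's middle rank were 13 members (1.72%), against 848 shared distal peaks (29.2%). They were also narrower, with a median width of 258 bp against 337 bp. When distal RA peaks were cut by score into 5 bins of equal size, the share called with RA alone was 1.23% in bin 1, the highest, then 11.5%, 24.7% and 29.2%, and 36.3% in bin 5, the lowest. The share called with RA alone was larger at each lower score bin. These scores come from the library whose calls chose the members, so they are a description.

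**Figure D1:**
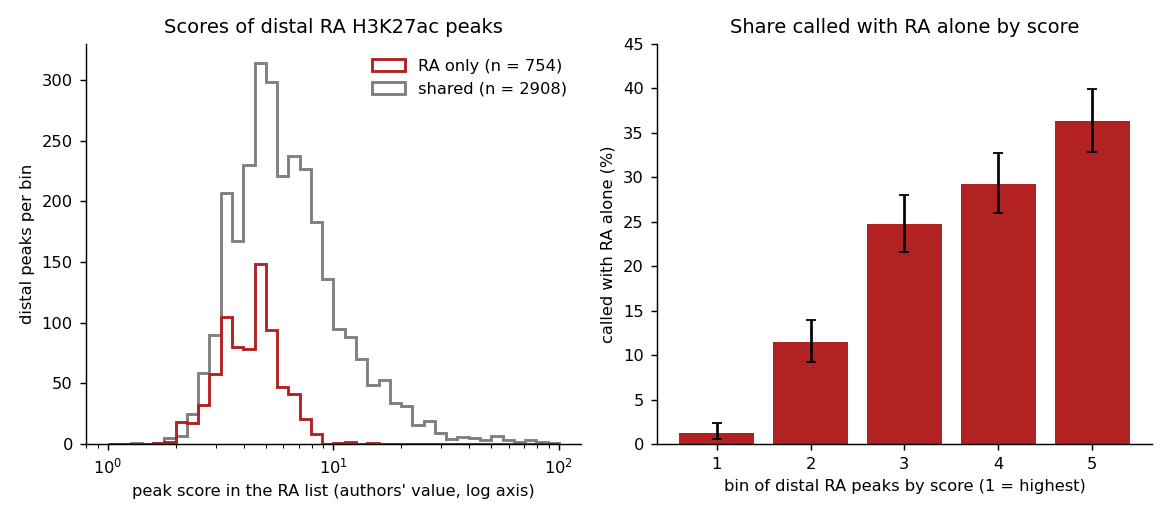
Left, histograms of the authors' score (log axis) for distal RA H3K27ac peaks called with RA alone (red, n = 754) and shared with another list (grey, n = 2908). Right, the percentage called with RA alone in each of 5 equal bins of distal RA peaks by score, with exact 95% intervals, which runs from 1.23% in the highest bin to 36.3% in the lowest.

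The same rule applied to the other lists gave 413 of 2671 distal peaks called with LG268 alone (15.5%), 1512 of 5483 with GW3965 alone (27.6%) and 2963 of 7313 in the control alone (40.5%). Every list thus had distal peaks of its own, and their share was larger in the longer lists. Of the distal RA peaks, 1279 (34.9%) were in all 4 lists, with a median score of 8.07, and 463 (12.6%) were shared with the control only.

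The distance from a member to the nearest H3K27ac peak of another list had a median of 14772 bp. It was at most 1 kb for 218 members (28.9%) and more than 10 kb for 415 (55.0%). Of the members, 170 (22.5%) had a control peak within 1 kb. A share of the set therefore lies beside a site called elsewhere, while most members stand well apart. At the overlap limit, the members at Gria1, Klf4 and Grxcr1 lay 1, 2 and 2 bp from a peak of another list, and the shared peaks at Rps24, AU022751 and Ddx3x overlapped one by 1, 2 and 7 bp. At the distance limit, the members at Pcdh18, Igf2bp3 and Lzts2 lay 1040, 1048 and -1052 bp from the TSS, and the excluded peaks at Gtpbp2, Nell2 and Minos1 lay -984, 979 and 958 bp from it.

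RXR, which the choice of members did not use, lay within 1 kb of 91 members in the RA list, 12.1% (9.83 to 14.6%), against 9.35% of shared distal peaks (8.32 to 10.5%) and 9.91% of all distal RA peaks. The intervals overlap, and the share is near the background. With LG268 the shares were 11.9% of members and 11.7% of shared peaks, beside a background of 11.7%. With GW3965 they were 3.98% and 4.95% (background 4.75%), and in the control 7.56% and 6.74% (background 6.91%). In none of the 4 ES lists did the interval of the members clear that of the shared peaks. The RXR lists differ in length, with 1970 peaks for RA, 2089 for LG268, 940 for GW3965 and 1089 for the control. A shorter list gives fewer peaks nearby, so shares are compared within an RXR list and not between lists.

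At day 8 of differentiation 5.84% and 9.15% of members had an RXR peak within 1 kb in replicates 1 and 2, a mean of 7.49% ± 2.34 (SD, n = 2). Shared distal peaks had 4.78% and 7.46%, a mean of 6.12% ± 1.90 (SD, n = 2), and all distal RA peaks 5.00% and 7.81%. Within each replicate the members' share was the higher, with intervals that overlap (4.27 to 7.76% against 4.03 to 5.62% in replicate 1, 7.19 to 11.4% against 6.53 to 8.48% in replicate 2). At day 16 the shares were 2.12% and 1.99% of members, against 3.75% and 3.58% of shared peaks, beside 3.41% and 3.25% of all distal RA peaks. The members' share was lower in both day 16 replicates, with intervals that overlap (1.22 to 3.42% against 3.09 to 4.50% in replicate 1). The day 8 lists held 1154 and 2044 RXR peaks and the day 16 lists 429 and 409, so shares are not compared between replicates or days.

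Set against distal peaks called alone in another list, members had more RXR peaks nearby. An RXR peak of the RA list lay within 1 kb of 12.1% of members, of 4.36% of peaks called with LG268 alone (2.60 to 6.80%), of 3.70% with GW3965 alone (2.81 to 4.78%) and of 3.07% in the control alone (2.48 to 3.76%). None of these 3 intervals reaches that of the members, or that of all distal RA peaks (9.91%, 8.96 to 10.9%). The same order held for RXR peaks of the control library, which lay near 7.56% of members (5.78 to 9.68%), against 2.91% (1.51 to 5.02%), 2.58% and 1.79% for the 3 other lone sets. At day 8 the shares were 5.84% and 9.15% for members, 1.45% and 1.94% with LG268 alone, 1.98% and 2.38% with GW3965 alone, and 0.979% and 1.96% in the control alone. In their own ligand's RXR list, peaks called with LG268 alone had 4.84% and peaks called with GW3965 alone 2.71%. These RXR lists held 2089 and 940 peaks, so the shares are not compared with each other. RA RXR without control RXR lay near 5.04% of members (3.59 to 6.85%), against 2.18% with LG268 alone (1.00 to 4.10%), 1.72% with GW3965 alone (1.13 to 2.51%) and 1.72% in the control alone (1.28 to 2.26%). The members' share was thus higher at RXR sites of vehicle-treated cells and at RA RXR sites without a control peak, although in the second case the interval for LG268 alone overlaps that of the members. The RXR share over all distal peaks of the LG268, GW3965 and control lists was not counted. Whether the gap belongs to the lone peaks or to the lists as wholes was therefore not tested.

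**Figure D2:**
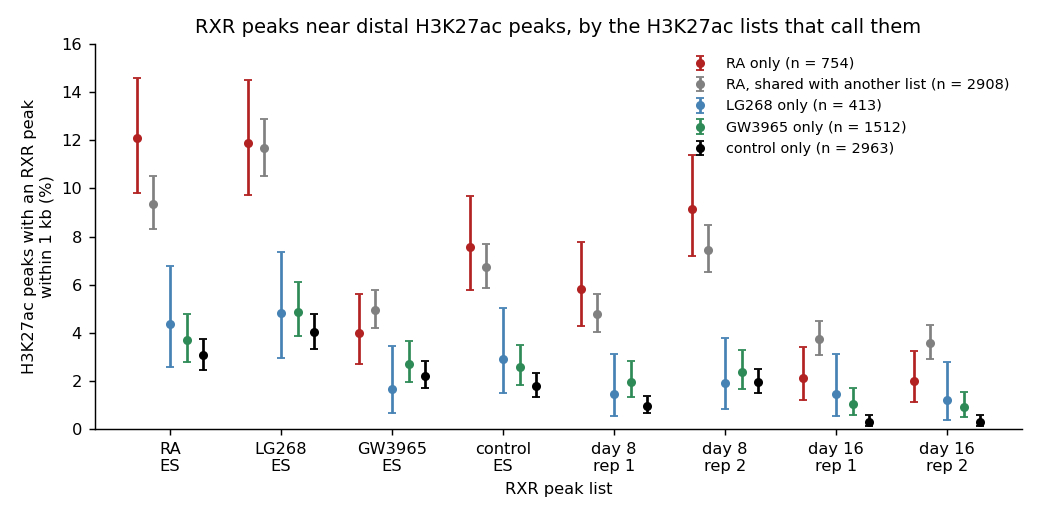
Percentage of distal H3K27ac peaks with an RXR peak within 1 kb (vertical axis) for each of the 8 RXR lists (horizontal axis), with exact 95% intervals. Peaks called with RA alone (red) lie close to shared RA peaks (grey) and, in the RA, LG268 and control lists and both day 8 lists, above peaks called with LG268 alone (blue), GW3965 alone (green) or in the control alone (black).

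Some RXR peaks recur in nearly every library or fall in repeats. Of the 91 members with RA RXR, 13 had RXR in 7 or 8 of the 8 lists and 7 lay in a repeat class, which leaves 77 with neither. Shared distal peaks held more of these common sites, with RXR in 7 or 8 lists at 3.20%, against 1.72% of members. Without such sites and repeats, a choice made after seeing the data, RA RXR lay within 1 kb of 10.5% of the 736 members left (8.34 to 12.9%), against 6.20% of 2792 shared peaks (5.33 to 7.16%). RXR in both day 8 replicates was near 4.08% of members (2.77 to 5.77%), against 1.65% of shared peaks (1.21 to 2.19%). This choice removes peaks by their RXR calls, the quantity compared: peaks with RA RXR went down to 77 of 91 for members and 173 of 272 for shared peaks, and those with RXR in both day 8 replicates to 30 of 44 and 46 of 136. The wider difference after it therefore comes largely from the peaks removed, and is no support beyond the shares over all members. Control RXR lay near 5.84% of the members left (4.26 to 7.79%) and 3.55% of the shared peaks left (2.89 to 4.30%).

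The members' RXR peaks lay both on and beside the H3K27ac peak. Of the 91 members with RA RXR, 41 were overlapped by the RXR peak and 50 had it 1 to 1000 bp from their edge. The flanks searched are longer than a typical member, so these counts show no preference for either position. An overlapping RA RXR peak was found at 5.44% of members and 5.95% of shared distal peaks. An RXR peak 1 to 1000 bp away was found at 6.63% of members (4.96 to 8.65%) and 3.40% of shared peaks (2.78 to 4.13%). The difference was widest at 1 to 200 bp, with 3.58% of members (2.37 to 5.17%) and 1.58% of shared peaks (1.16 to 2.10%). Members are narrower than shared peaks, and the part of width in this result was not tested. Outside common sites and repeats the overlapping share was 3.67% of members and 2.90% of shared peaks, and the share 1 to 1000 bp away 6.79% and 3.30%.

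**Figure D3:**
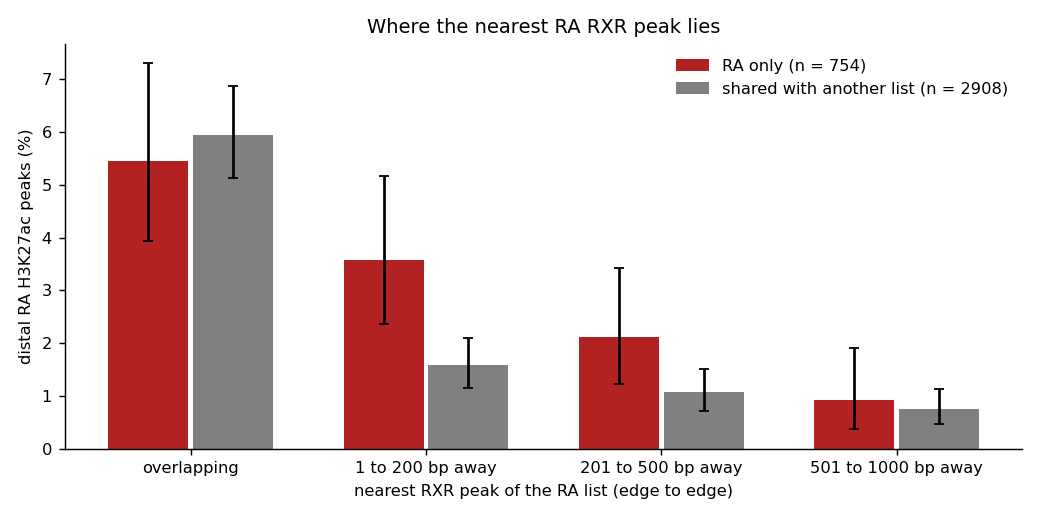
Percentage of distal RA H3K27ac peaks by the position of the nearest RXR peak of the RA list, edge to edge, with exact 95% intervals. Peaks called with RA alone (red, n = 754) stand at 3.58% for RXR 1 to 200 bp away and shared peaks (grey, n = 2908) at 1.58%, while the bars for overlapping RXR have overlapping intervals.

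Members with RA RXR scored higher in the H3K27ac list than members without, with medians of 4.96 and 4.26. Within the 5 score bins, RA RXR lay near 21.4% of members (13.2 to 31.7%) and 9.57% of shared peaks (7.41 to 12.1%) in bin 2, 15.5% and 6.72% in bin 3, and 11.7% and 5.02% in bin 4. In bin 5, which holds 266 members, the shares were 5.64% and 6.21%. Bin 1 held 9 members, 5 of them with RA RXR (55.6%, 21.2 to 86.3%), against 16.3% of shared peaks. The intervals of members and shared peaks do not overlap in bins 2, 3 and 4, and overlap in the lowest bin. Outside common sites and repeats bins 2, 3 and 4 gave 17.7%, 14.1% and 11.0% of members against 6.26%, 5.02% and 4.49% of shared peaks, under a choice that itself removes peaks by RXR. Bin 1 then held 4 members, none with RA RXR, which allows a share of up to 60.2%.

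Seen from the RXR side, 89 of the 1970 RA RXR peaks lay within 1 kb of a member (4.52%, 3.64 to 5.53%) and 253 near a shared distal peak (12.8%). The RXR peaks near members had a median score of 10.3, against 7.23 over the whole RXR list. The median score of those near shared distal peaks was not taken, so this does not set the members apart. Of the 91 members with RA RXR, 75 also had LG268 RXR, 53 control RXR, 24 GW3965 RXR and 43 RXR in both day 8 replicates. Most members with RA RXR were therefore at sites where RXR was also called with LG268 or without ligand. Shared distal peaks were similar in the second respect. Control RXR was missing at 38 of the 91 members and at 109 of the 272 shared distal peaks with RA RXR. The LG268, GW3965 and day 8 counts were not made for those 272 peaks, so they do not set the members apart.

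RXR of the RA list without control RXR lay near 38 members (5.04%, 3.59 to 6.85%), against 3.75% of shared distal peaks (3.09 to 4.50%) and 4.01% of all distal RA peaks, a share near the background. Of these 38, 25 had LG268 RXR, 18 had RXR in at least 1 day 8 replicate and 11 in both. The same counts were not made for shared distal peaks. By H3K27ac score they were led by the peaks at Amz1 (7.67), Nr2f2 (7.63), B930092H01Rik (7.18), Ier2 (7.0), Gm16863 (6.50) and Meis2 (6.31). Those with RXR in both day 8 replicates were nearest to Skap1, Hoxa2, Tatdn2, Traf3ip2, Kif13b, Sdk2, Ccne1, Nck2, Cd83, Pdzrn3 and Trim17. RA RXR alone of the 4 ES lists lay near 12 members (1.59%, 0.825 to 2.76%), those at Foxa1, Sdk2 and Cry2 among them. This share too is near the background, with 1.41% of shared distal peaks and 1.45% of all distal RA peaks.

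The members had 709 nearest genes: 665 with 1 member, 43 with 2 and 1, Skap1, with 3. Within 100 kb of the TSS lay 592 members, with 565 genes of the 2263 that had any distal RA peak in that range, a background of 25.0%. Of 33 RA-responsive genes 13 had a distal RA peak and 8 a member (61.5%): the receptors Rarb and Rarg, the RA-degrading enzyme gene Cyp26b1, the retinaldehyde reductase gene Dhrs3, the transcription factor genes Meis2, Nr2f1 and Foxa1, and Nav2. Of 39 Hox genes 5 had a distal RA peak and 3 a member (60.0%), Hoxa2, Hoxb2 and Hoxc4. Meis1, Nrip1, Rai1 and Zfp703 were among the RA-responsive genes with a distal RA peak but no member. These lists were drawn up with results of these data known, so their counts are a description. The background is counted per gene, and a gene with more distal RA peaks has more chances of a member. Rarb and Dhrs3 had 3 distal RA peaks each, Cyp26b1, Meis2, Nr2f1, Foxa1 and Nav2 had 2, and Rarg had 1. The part of peak number in these shares was not tested.

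Among receptor genes, Rarg (RAR gamma) had a member 1196 bp upstream of its TSS, in a CpG island (mm10 chr15:102247407-102247689), with a score of 7.45 and rank 7840 in the RA list. The nearest peaks of the LG268, GW3965 and control lists lay 31786, 31452 and 1222 bp away. RXR was called 148 bp from it with RA (score 27.4, rank 121 of 1970), 165 bp with LG268 (10.4) and 154 bp in the control (15.4), and at day 8 with scores of 13.2 and 46.1. This RXR site was therefore listed with and without ligand, while the H3K27ac peak beside it was listed with RA alone. The Rarg promoter itself had H3K27ac peaks of score 7.32 with RA and 3.90 in the control, and none with LG268 or GW3965.

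Rarb (RAR beta), whose promoter holds a well-known RA response element, had 5 RA peaks, 1 with LG268, 2 with GW3965 and 2 in the control. The best promoter score was 11.0 with RA, 6.93 with GW3965 and 6.99 in the control, and LG268 had no promoter peak. These scores belong to separate libraries and are not compared. Its members were an intergenic peak 23391 bp upstream (chr14:16598458-16598744, score 4.48) and a peak 399208 bp upstream in an L1Md_T element (score 2.63). Neither had RXR within 1 kb in any of the 8 lists. At Rarb the RXR-free members were thus weak, and the stronger RA peak lay at the promoter, outside the set.

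Of the genes of RA turnover, Dhrs3 (which returns retinaldehyde to retinol) had 3 RA peaks and 1 GW3965 peak, and none with LG268 or in the control. Its stronger member lay 142122 bp downstream of the TSS (chr4:145035075-145035444), with a score of 7.13. It is annotated to intron 64 of 68 of a transcript. The nearest gene is named by TSS distance, so this intron is not to be read as one of Dhrs3. RXR lay 60 bp from it with RA, at a score of 95.9 and rank 12 of 1970. The same site had RXR scores of 39.4 with LG268, 5.98 with GW3965 and 33.6 in the control, and of 132 and 156 in the day 8 replicates, whose peaks overlapped the member. RXR was called there in all 4 ES lists. The second member, 57127 bp downstream (score 3.55), had RXR at day 8 only, 366 and 310 bp away.

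Cyp26b1, which encodes an enzyme that clears RA, had a pair of members 47522 and 46436 bp upstream of the TSS (chr6:84641310-84641550 and chr6:84640205-84640483), with scores of 3.44 and 2.75. They flank 1 RXR site, which lay 255 and 75 bp away with RA (score 26.1, rank 133). RXR was also called there with LG268 (20.0), GW3965 (4.22) and in the control (10.1). At day 8 the peak nearest to the second member had scores of 119 and 125 and ranks of 15 and 18. The nearest control H3K27ac peak lay 39684 bp from the first member. The pair was thus faint in H3K27ac and beside a strong day 8 RXR site.

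Of the transcription factor genes, Meis2, a homeobox cofactor of Hox proteins, had a member 43591 bp downstream of its TSS in an intron (chr2:116020800-116021260, score 6.31). RXR overlapped it with RA (score 23.4, rank 165) and LG268 (5.76), was not called with GW3965 or in the control, and overlapped it in day 8 replicate 2 only (9.51). A GW3965 H3K27ac peak began 5 bp from this member, and with a limit of 1 kb the site would not count as one of RA alone. Nr2f2, an orphan nuclear receptor gene, had a member 258221 bp upstream (chr7:70624737-70625197, score 7.63) with RXR with RA (14.5), LG268 (5.34) and day 8 replicate 2 (7.98). That gene had 2 RA peaks, 2 with LG268, 10 with GW3965 and 7 in the control, so the member stands in a locus with fewer RA peaks than control peaks. Foxa1, a pioneer factor gene, had a member 30124 bp downstream (chr12:57515814-57516181, score 5.86) with RXR in the RA list alone (score 5.23, rank 1420). Nr2f1, another orphan receptor gene, had a member 10850 bp upstream (score 6.12), and Nav2, a neuron navigator gene, one in an intron (score 3.13), both without RXR.

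Hoxa2, needed for hindbrain patterning, had a member 10482 bp upstream of its TSS (chr6:52175195-52175431, score 5.26). Its annotated intron, 3 of 4, is likewise not to be read as one of Hoxa2. RXR calls at this member were as follows. RXR overlapped it with RA (22.2, rank 180), LG268 (23.9) and in both day 8 replicates (64.1 and 86.3), and was not called with GW3965 or in the control. The second Hoxa2 member, whose edge is the promoter stretch printed above, lay 12456 bp upstream (score 3.69) and had no RXR. Hoxc4 had members 26494 and 25943 bp downstream (scores 5.13 and 3.71), 894 and 355 bp from a GW3965 peak. The first of these (chr15:103060741-103061038) had RXR 497 bp away with RA (43.2, rank 51), and RXR was also called there with LG268 (20.3), in the control (25.9) and at day 8 (67.5 and 96.0). Hoxb2 had a member 2979 bp downstream (score 4.26), 18 bp from a control peak and without RXR. The Hox members thus differ among themselves: 1 overlaps RXR, 1 has RXR at a distance, and 3 have none.

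Skap1, which encodes a T-cell adaptor protein and lies beside the Hoxb cluster, was the single gene with 3 members and had no H3K27ac peak in the other lists. All 3 lay in intron 4 of 12, at 114016, 155588 and 156469 bp from the TSS, with scores of 5.48, 6.23 and 5.45 (chr11:96578490-96578725, chr11:96620062-96620297 and chr11:96620887-96621234). The nearest control peaks lay 133689, 92117 and 91180 bp away. Beside the first member RXR was called with RA (37.1, rank 65), LG268 (8.67) and at day 8 (62.8 and 99.8), and not in the control. The other two flank or overlap 1 RXR site with scores of 29.0 with RA, 7.81 with LG268, 9.16 in the control, and 41.4 and 63.9 at day 8. All members of this gene thus had RXR with RA and at day 8, and the pair at 155588 and 156469 bp shares 1 RXR peak. They lie beyond 100 kb from the TSS and do not enter the count of genes above.

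**Figure D4:**
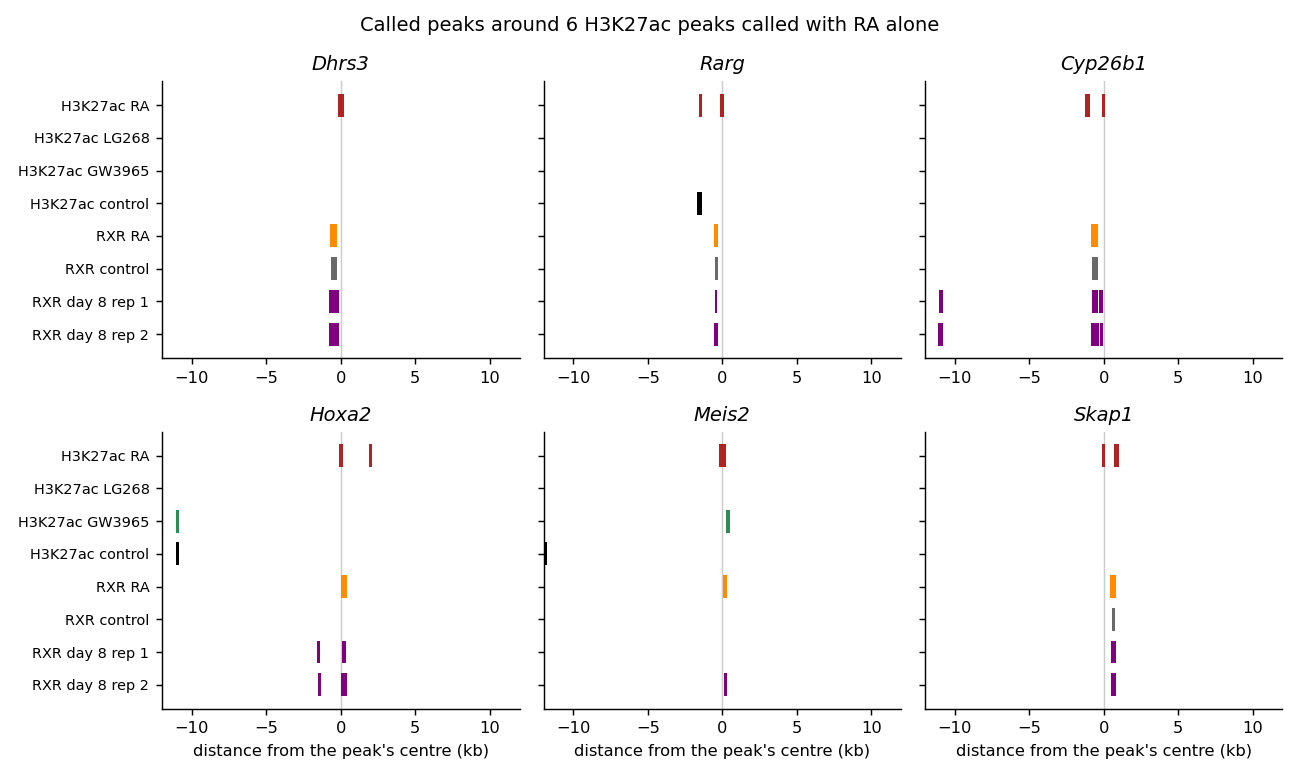
Called peaks within 12 kb of the highest-scoring member at 6 genes, by distance from the member's centre in genome order (horizontal axis, kb), with a row for each list and bars as wide as the peaks. H3K27ac with RA stands at 0 in each panel by the rule. The 6 genes were picked from those with RA RXR near the member, as 12.1% of all members have. Rarb, Nr2f1, Nav2 and Hoxb2, whose members had no RXR, are not shown. RXR in day 8 replicate 2 lies within 1 kb of the centre in all 6, and control RXR in 4.

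**Figure D5:**
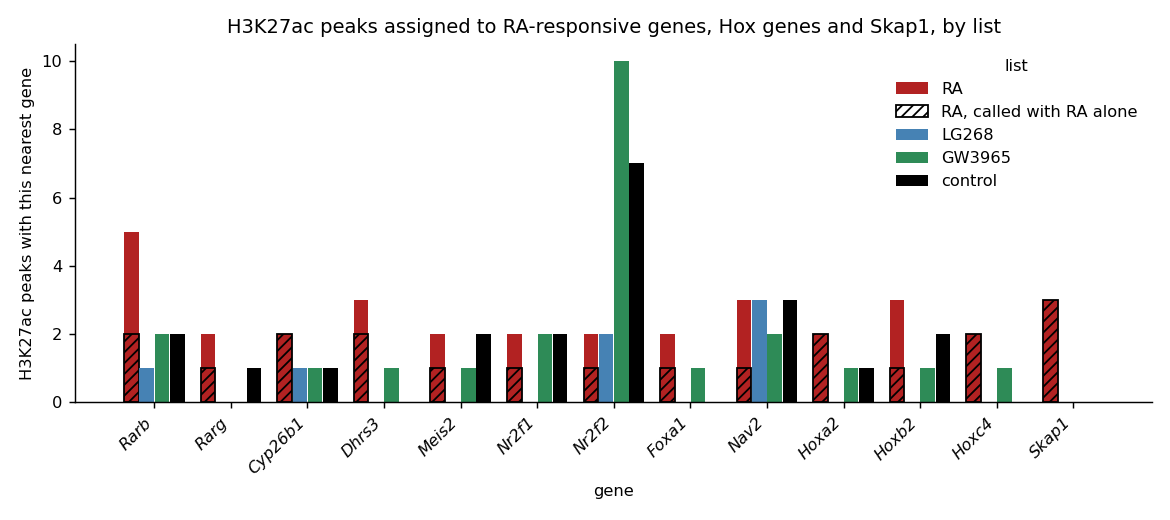
Number of H3K27ac peaks with the given nearest gene in the RA, LG268, GW3965 and control lists, with the part of the RA bar called with RA alone hatched. Skap1 has 3 RA peaks and none elsewhere, Dhrs3 has 3 with RA and 1 with GW3965, and Nr2f2 has more peaks with GW3965 (10) and in the control (7) than with RA (2).

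The other lists had 0 to 3 genes with a member. Of 7 pluripotency genes with a distal RA peak, Klf4 and Klf5 had a member (28.6%), and Nes was a neural progenitor gene with one. Of 4 neuronal genes Elavl3, Ncam1 and Pou3f2 had one, of 3 endoderm genes Foxa2 and Lamb1, and of 2 mesoderm genes Wnt3. Of 7 LXR target genes Acaca and Arl4c had a member, of 12 FGF and ERK response genes Etv4, Fgfr2 and Il17rd, and of 4 Nodal and BMP response genes Id1. The trophoblast list had 1 gene with a distal RA peak and none with a member. Over all 11 lists 27 of 65 genes had a member (41.5%), beside the background of 25.0%. Both counts include members with a peak of another list within 1 kb, such as Klf4 (2 bp) and Id1 (42 bp from a GW3965 peak). Others, such as Nes, have none that near. The gene count was not repeated with a limit of 1 kb. The members at the neuronal and pluripotency genes named here, of scores 3.07 to 6.58, and the one at Nes (4.46) had no RXR within 1 kb in any list. Wnt3 and Acaca, like Skap1, had no H3K27ac peak in the other lists.

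The highest-scoring members were in part repeats. Of the 10 highest, those nearest to Lcorl (14.6), Ros1 (12.2), 2210408I21Rik (11.0) and C130079G13Rik (8.68) lay in simple repeats and had RXR in 7 or 8 of the 8 lists, as did a SINE peak at Plxnc1 (8.68). Those at Lrrc7 (12.2) and 4931408C20Rik (8.68) lay in LINE elements. The remaining ones were at 1810026B05Rik (8.82), 482 bp from an LG268 peak, at Plekhm3 (8.67) and in intron 2 of 29 of Ptprg (8.36), all without RXR. Of the 15 highest members with RA RXR, further ones lay at Fam114a2 (7.64), Cr2 (7.58), AY512931 (7.32) and Lrtm1 (6.98). Fam114a2, Cr2 and Xkrx (6.51), the last named for its RXR in both day 8 replicates, had RXR in 7 lists. Of the RA-responsive genes, Nr2f2 held place 17 among the 754 members by score, Rarg 24, Dhrs3 30, Meis2 74, Nr2f1 89 and Foxa1 104, so none was among the 10 highest.

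Members lay in introns more often than shared distal peaks and in CpG islands less often. Introns held 31.0% of members (27.7 to 34.5%) and 20.0% of shared peaks (18.6 to 21.6%). CpG islands held 4.77% of members (3.37 to 6.55%) and 20.9% of shared peaks (19.5 to 22.5%). Neither pair of intervals overlaps. Intergenic sequence held 35.8% and 32.3%, LINE elements 17.1% and 13.8%, exons 3.45% and 3.54%, and SINE elements 2.79% and 2.30%. Members also lay farther out, with a median distance to the TSS of 30052 bp against 23516 bp, and 21.5% against 17.1% beyond 100 kb. The next RA peak was a median of 37050 bp away for members and 20082 bp for shared peaks, and within 1 kb for 79 members (10.5%) and 785 shared peaks. Members were thus more solitary peaks, away from CpG islands.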

How the data were processed

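RXR and H3K27ac were measured by ChIP-seq in E14 ES cells, and 12 peak lists, 1 per library, were used. Per the submitters' processing notes, BWA 0.6.0, HOMER 4.2 and MACS2 2.0.10 were used, and the builds mm9 and mm10 are named without a role. Per the file headers, peaks were annotated on mm10. The score of each peak, its nearest gene, location class and distance to the TSS are the authors' deposited values.

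Peaks were intersected in Python 3.11.15 (pandas 2.3.3, numpy 2.4.6), with intervals from scipy 1.17.1 and plots from matplotlib 3.10.9, by an overlap of 1 bp or a gap of at most 1000 bp. The overlap counts were checked on simulated peaks. Shares carry exact 95% intervals, and no test was run. The members and gene lists were chosen with earlier results of these data known. Named were nearest genes of the 10 highest members, of the 15 highest with RA RXR, of up to 10 with RXR in both day 8 replicates, of 3 or more members, and listed genes within 100 kb. Some genes this rule names are not reported here. Of 709 nearest genes 651 matched RefSeq symbols.

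Peak numbers run in genome order and skip 4.26% of values in the RA list, 4.53% with LG268, 3.88% with GW3965 and 3.61% in the control, and what these stood for was not analysed here. The planned scan of members for paired half-sites was not run, because no genome was used.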

Additional observations from a re-analysis of the deposited data

How the results depend on the processing

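Restricting the RA list to peaks above its middle rank by score left 13 members, of which 38.5% had RA RXR within 1 kb and 38.5%, as a mean over the day 8 replicates, day 8 RXR, against 15.6% and 12.6% of shared distal peaks. Counting RXR only where it overlaps by 1 bp gave 5.44% for RA and 3.78% for day 8, against 5.95% and 3.99% of shared peaks, so the members' share then lay below that of shared peaks. Leaving out a day 8 replicate gave 5.84% to 9.15%. The other alternatives, which were a distance above 5000 bp, no other peak within 1 kb, LTR peaks kept, repeats left out, RXR within 5 kb or outside repeats, absence from the control list only and, chosen after seeing the data, unbroken peak numbers and no common RXR site, gave 536 to 1095 members. In them 10.5% to 13.8% had RA RXR, each above the share of shared peaks. For no other peak within 1 kb, unbroken peak numbers and absence from the control list only, the shared peaks were those of the main rule (9.35%). Absence from the control list only gave the 1095, and some of these are also among the shared peaks they are set against. Within 50 kb 23 of 59 listed genes had a member (39.0%, against 23.9% of all genes), and without a distance limit 33 of 73 (45.2% against 26.7%). No paired analysis was possible because each ES treatment has 1 library and no test was made. Unknown depth limits all counts: a site missing from a list may lie just under its calling threshold.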

Other observations

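LINE elements held 129 members, 120 of them in L1Md families and 102 in L1Md_T. Of 401 shared distal peaks in LINE elements 379 were L1Md and 349 L1Md_T, so L1Md made up 15.9% of members and 13.0% of shared peaks. Their median score was 4.48 in members and 4.48 in shared peaks. RA RXR lay within 1 kb of 2 LINE members and 5 shared LINE peaks. Introns and intergenic sequence held most RXR sites of the set, with 35 of 234 intronic and 33 of 270 intergenic members, against 57 of 583 and 84 of 940 shared peaks. In simple repeats RA RXR lay near 6 of 8 members and 46 of 55 shared peaks. SINE elements had RA RXR at 7 of 21 members and 7 of 67 shared peaks. The near-identical copies of L1Md make the placement of reads there uncertain.

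At the promoters of the nearest genes within 100 kb, H3K27ac was called with RA and in the control for 45.8% of members and 47.6% of shared peaks. It was called with RA and not in the control for 1.69% (10 members) and 1.24%, in the control and not with RA for 11.0% and 9.25%, and in neither for 41.6% and 41.9%. The intervals overlap in each class. The 10 members lay nearest to Nbl1, Rpia, Vgll4, Mrps27, Mxra8, Soga3, Mir1931, Cxcr7, Nsmce2 and Sox15, none of them in the RA-responsive or Hox lists. Of the 709 nearest genes 118 (16.6%) had no H3K27ac peak in the LG268, GW3965 and control lists, and 149 (21.0%) none in the control. The rule leaves out overlaps with these lists, and the same share over genes of all distal RA peaks was not counted. These counts therefore do not set the members' genes apart. By chromosome, the share of distal RA peaks called with RA alone ran from 16.5% on chromosome 18 to 26.5% on chromosome 2 (63 of 238), apart from chromosome Y with 3 of 11 peaks.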
